A study of Mus musculus with 16 samples.

Results

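The ATF4 stress response genes examined here are Atf4, Atf5, Ddit3, Trib3, Sesn2, Ddit4, Chac1, Slc7a11, Asns and Psat1, 10 of the 15877 genes that could be tested on the arrays. They were found by gene name among the 55681 probes other than controls, which gave 12 probes, with 2 each for Atf4 and Psat1. The set is a known pathway, but Chac1 was chosen by a measured value, the drop it showed when cordycepin preceded LPS, and the high Ddit3 signal of DMSO replicate 2 was chosen likewise. These values are therefore given as descriptions without a test. In the comparison of cordycepin with vehicle under LPS, and in the difference of the LPS responses, the counts are over the other 9 genes. Counts over all 10 in the LPS comparisons include Chac1, which is no test there. RAW 264.7 cells, macrophage-like cells grown from a tumour of a mouse, were moved to low-serum medium and then received cordycepin at 20 µM in DMSO, or DMSO alone, for 60 min. LPS at 1 µg/ml was added or not, and all cultures went on for a further 60 min, to 120 min in all. The 4 conditions, DMSO, cordycepin, LPS+DMSO and LPS+cordycepin, had 4 cultures each, 1 per day, with 1 array per culture (16 arrays). All 4 conditions carry the DMSO solvent and come from 1 cell line, and a single dose and time were measured.

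ATF4 is a transcription factor of the integrated stress response. Kinases that sense unfolded protein, lack of amino acids, viral RNA or lack of haem phosphorylate the initiation factor eIF2alpha, which lowers general protein synthesis but favours translation of the Atf4 and Atf5 mRNAs. ATF4 then induces genes for the synthesis and import of amino acids, the second transcription factor CHOP (gene Ddit3) and regulators that damp the response. The activity of ATF4 is set mainly by translation, so that the level of its mRNA is only part of the picture. Cordycepin is an adenosine analogue that inhibits polyadenylation, and LPS is a bacterial cell wall component that activates macrophages.

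On each array, 37.1% to 51.2% of 59305 spots were well above background, none was saturated, and all 12 probes were well above background on all 16 arrays. The first slide held replicates 1 and 2 of each condition, the second slide replicates 3 and 4. DMSO replicate 2 stood apart, with a root mean square distance from the rest of its group of 0.53 log2 units over all genes, against 0.24 to 0.45 for the other 15 arrays. All 10 macrophage markers examined, such as Csf1r and Cd68, were well above background on all arrays. Of 8 markers of other cell types, Ms4a1, Krt18 and Alb were above background on no array and Cd3e on all 16, at a scaled log2 signal of 8.33 to 10.19, and the other 4 on 1 to 12 arrays, and their part in the results was not tested. In such whole-culture RNA a change in every cell and a change in some of the cells cannot be told apart.

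The sequences below show where the ATF4 recognition sequence lies in the promoters of the genes described. RefSeq (GRCm38.p6) gives 12 promoter windows for the 10 genes, from 250 bases before to 50 after the transcription start. The C/EBP-ATF response element, searched as TGATGNAA on both strands, occurred in the windows of 4 of the 10 genes, Chac1, Trib3, Slc7a11 and Asns, and in those of 4.51% of all 27025 genes. The palindromic cyclic AMP response element TGACGTCA occurred in none of them (2.03% of all genes), and its core TGACG, which lies within it, in those of Atf4, Chac1, Trib3 and Asns (23.0% of all genes). A match is a description of the letters and not of binding. The Chac1 promoter is shown first because Chac1 changed most, with the core (at the first base) and the C/EBP-ATF element in capitals. The elements of the 4 genes follow on their coding strands with 11 bases on either side.
Chac1 promoter, chr2:119350992-119351241 (+): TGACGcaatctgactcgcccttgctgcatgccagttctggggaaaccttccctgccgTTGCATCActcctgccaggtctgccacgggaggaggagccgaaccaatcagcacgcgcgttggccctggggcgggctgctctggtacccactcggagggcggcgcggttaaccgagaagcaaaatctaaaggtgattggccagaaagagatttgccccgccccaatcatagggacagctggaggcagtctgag
Chac1 element, chr2:119351038-119351067 (+): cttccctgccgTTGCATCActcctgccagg
Trib3 element, chr2:152344028-152344057 (-): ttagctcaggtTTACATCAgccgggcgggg
Slc7a11 first element, chr3:50443661-50443690 (-): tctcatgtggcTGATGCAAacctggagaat
Slc7a11 second element, chr3:50443642-50443671 (-): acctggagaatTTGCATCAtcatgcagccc
Asns element, chr6:7693214-7693243 (-): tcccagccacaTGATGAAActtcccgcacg
The Slc7a11 promoter held a pair of elements, the first at position -66 and the second at -47 from the start. Those of Chac1 and Asns were at -193 and -23, and that of Trib3 lay after the start, at position 15.

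Signals are given as log2 values scaled to the 75th percentile of each array, so that 1 unit is 2-fold. Calls required both an adjusted p under 0.05 (limma, over all genes tested) and at least 2-fold. Signals of different probes cannot be compared with each other.

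**Figure D1:**
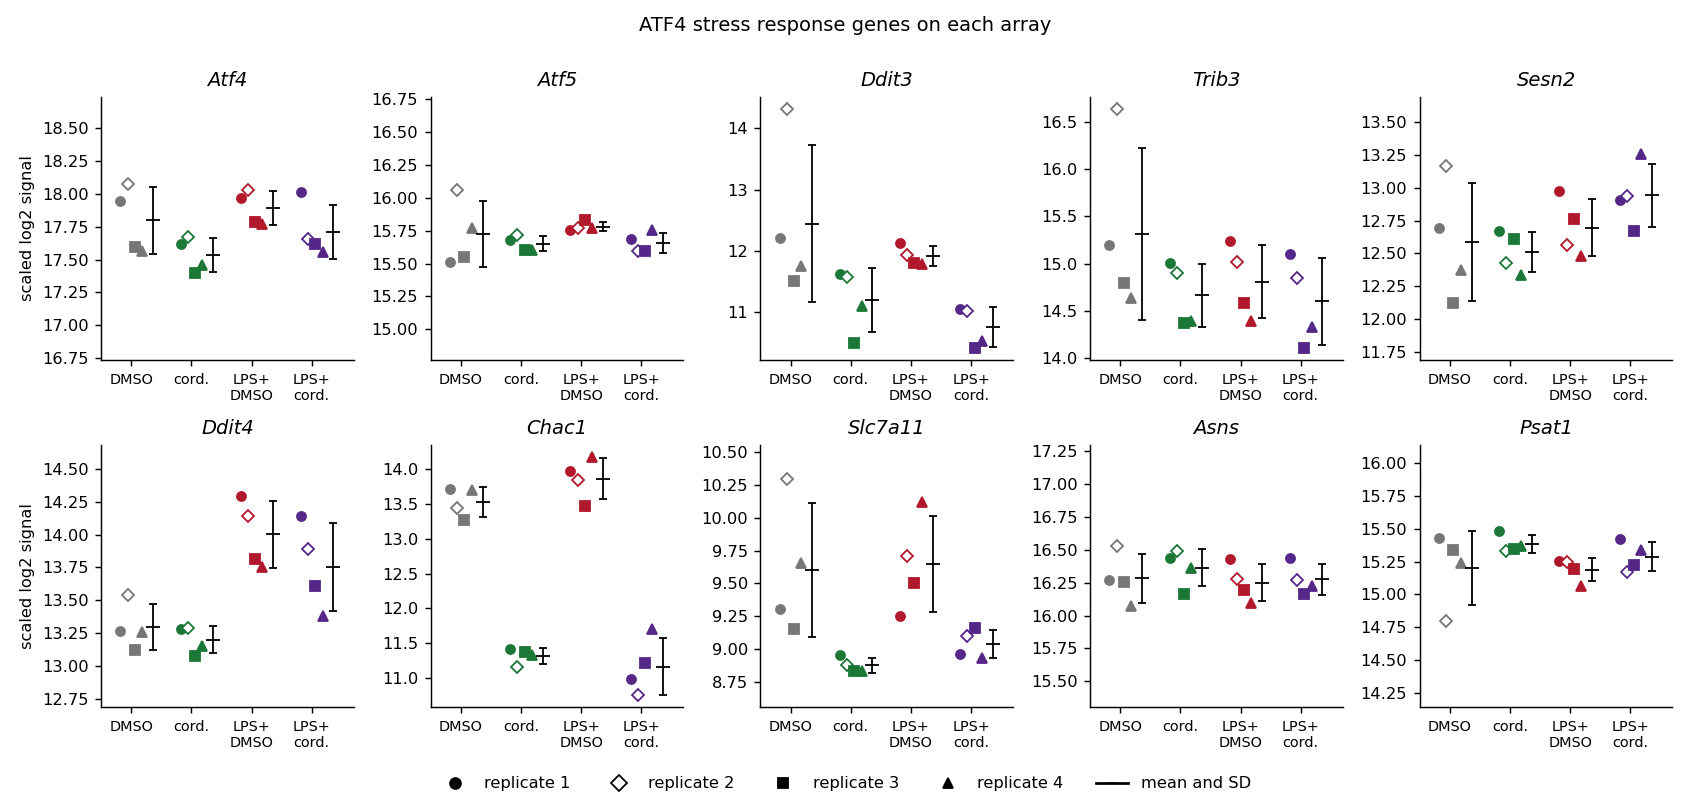
Scaled log2 signal of each of the 10 genes (brightest probe) on the 16 arrays, by condition (cord., cordycepin), with each panel on its own vertical axis. Symbols mark the replicate number, and bars give mean and SD (n = 4). Chac1 lay at 13.27 or above in both conditions without cordycepin and at 11.70 or below in both with it, and the open diamond of DMSO replicate 2 stands highest for Ddit3 and Trib3.

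Chac1 encodes an enzyme that degrades glutathione and is a classical target of ATF4 and CHOP. It was the one gene of the 10 that was called for cordycepin in resting cells. The DMSO arrays read 13.72, 13.44, 13.27 and 13.70 and the cordycepin arrays 11.42, 11.16, 11.37 and 11.33, in the order of the replicate numbers. The groups were separated by 1.85 log2 units, and the cordycepin arrays lay within 0.26 of one another. Chac1 fell by 2.21 on the log2 scale (4.63-fold, standard error 0.19, adjusted p = 6.29e-07, limma) and was lower on each of the 4 days. The difference was -2.29 on slide 1 and -2.13 on slide 2, and -2.24 without DMSO replicate 2 (adjusted p = 3.21e-06, limma). Of all genes tested, 4.49% were called raised and 1.06% lowered in this comparison. The count of 1 lowered gene of 10 cannot be read against these shares, since that gene was chosen by a fall with cordycepin.

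With LPS, Chac1 read 13.97, 13.85, 13.47 and 14.18 in LPS+DMSO and 10.98, 10.75, 11.22 and 11.70 in LPS+cordycepin. This difference of -2.70 (6.52-fold, standard error 0.19) is the one that chose the gene and is a description. The day differences were -2.99 and -3.10 for replicates 1 and 2 and -2.25 and -2.48 for replicates 3 and 4, so that they were larger on slide 1 (mean -3.04) than on slide 2 (mean -2.36). The fall without LPS was measured on other arrays than those that chose the gene.

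For Chac1 the differences with LPS are also descriptions with no test. The mean was 13.53 ± 0.21 in DMSO and 13.87 ± 0.30 in LPS+DMSO (SD, n = 4 each), with overlapping arrays and a difference of 0.33 (standard error 0.19). LPS+DMSO was the higher on 4 of 4 days, by 0.19 to 0.48. Under cordycepin the mean was 11.32 ± 0.11 without LPS and 11.16 ± 0.41 with it (SD, n = 4 each), a difference of -0.16. In order of level the 4 conditions were LPS+DMSO, DMSO, cordycepin and LPS+cordycepin, and the arrays overlapped within both the upper and the lower pair. Both LPS differences and this order use the arrays that chose the gene. That choice favours a high LPS+DMSO and a low LPS+cordycepin level.

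Slc7a11 encodes the light chain of the cystine/glutamate antiporter xCT, which supplies cysteine for glutathione, and so stands opposite Chac1 in glutathione metabolism. Its arrays read 9.31, 10.29, 9.15 and 9.66 in DMSO and 8.96, 8.88, 8.84 and 8.84 in cordycepin. The groups did not overlap, and the cordycepin arrays were close together while the DMSO arrays spread over more than 1 unit. The difference was -0.73 (standard error 0.21, adjusted p = 0.0275, limma), which passed the adjusted p but not the 2-fold minimum. Without DMSO replicate 2, the highest array, it was -0.49 (adjusted p = 0.0623, limma).

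With LPS, Slc7a11 read 9.25, 9.71, 9.50 and 10.12 in LPS+DMSO and 8.96, 9.10, 9.16 and 8.93 in LPS+cordycepin, again without overlap. The difference was -0.61 (standard error 0.21, adjusted p = 0.0582, limma) and was below 0 on all 4 days, from -0.29 to -1.19. By slide it was -0.88 and -0.57 without LPS and -0.45 and -0.77 with LPS. With the replicate number as a block the value with LPS had an adjusted p of 0.0428 (limma), still short of 2-fold. LPS gave differences of 0.04 in DMSO and 0.16 in cordycepin (adjusted p = 0.943 and 0.793, limma).

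Ddit3 encodes CHOP, a transcription factor that ATF4 induces and that acts with it on further target genes. It was lower with cordycepin on every day, with and without LPS. The LPS+DMSO arrays read 12.13, 11.93, 11.80 and 11.78 and the LPS+cordycepin arrays 11.05, 11.02, 10.41 and 10.53. These groups did not overlap and lay 0.73 log2 units apart. The difference was -1.16 (2.23-fold, standard error 0.46, adjusted p = 0.101, limma), which was not called. The standard error comes from a spread shared by all 4 conditions, to which DMSO replicate 2 belongs. In the fit without that array the standard error was 0.24, a description with no test, since the array was chosen by its Ddit3 height. With all arrays the same difference was called with the replicate number as a block (adjusted p = 0.0337, limma) or the slide as a block (adjusted p = 0.0297, limma). It was also called with only these 2 groups in the fit (adjusted p = 0.00133, limma), which leaves out DMSO replicate 2 along with the rest of its condition. The slides gave -0.998 and -1.32.

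In resting cells, Ddit3 read 12.21, 14.31, 11.50 and 11.76 in DMSO and 11.62, 11.58, 10.50 and 11.10 in cordycepin. DMSO replicate 2 lay 2.10 above the next DMSO array, and the groups overlapped slightly, since the lowest DMSO array was below the 2 highest cordycepin arrays. The difference was -1.25 (2.37-fold, standard error 0.46), a description with no test, since it holds the array whose Ddit3 signal was chosen for its height. Without DMSO replicate 2 the DMSO mean went from 12.45 ± 1.28 (SD, n = 4) to 11.82 ± 0.36 (SD, n = 3). The difference from cordycepin shrank to -0.62, also a description with no test, since the array left out was chosen by its Ddit3 height. The other 3 days gave differences of -0.59, -1.001 and -0.65, against -2.74 on day 2. Slide 1, which holds that array, gave -1.66 and slide 2 -0.83.

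**Figure D2:**
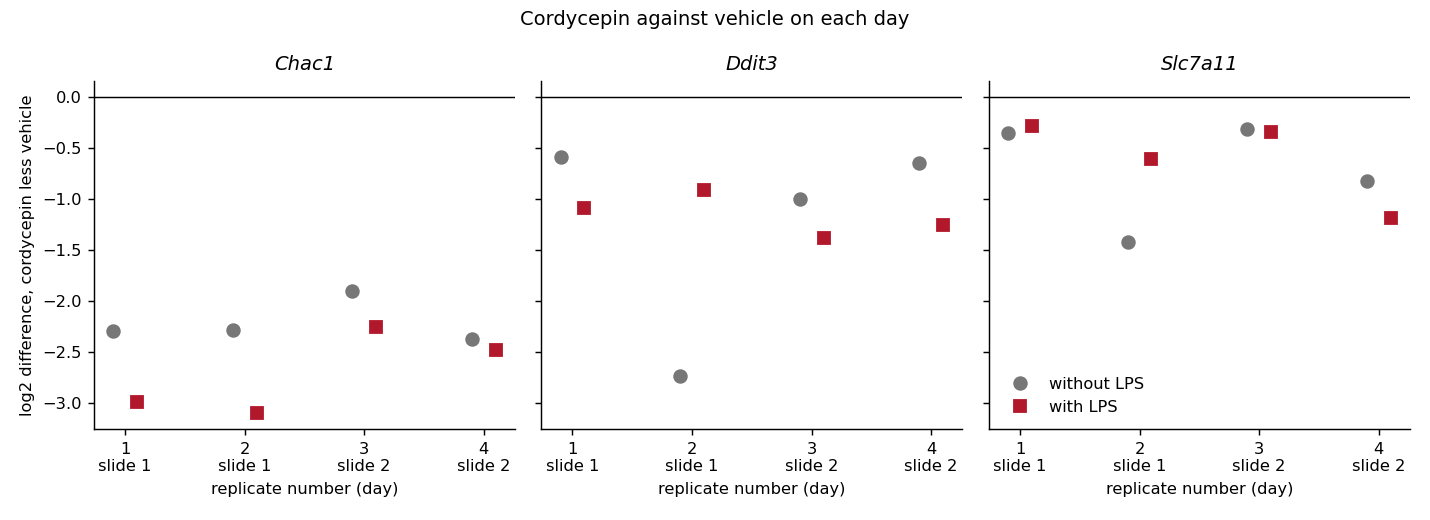
Log2 difference between cordycepin and its vehicle on each of the 4 days, without LPS (circles) and with LPS (squares), for Chac1, Ddit3 and Slc7a11. All 24 differences lie below 0, and the single far point is Ddit3 without LPS on day 2, at -2.74. The genes shown are the members with the largest falls with cordycepin without LPS, so that this count is a description. The Chac1 values with LPS chose that gene, and the far point holds the array chosen by its height. Psat1, not shown, was higher with cordycepin on 4 of 4 days without LPS.

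For Ddit3 the sign of the difference of LPS+DMSO from DMSO rested on DMSO replicate 2. This difference was -0.53 with all arrays and 0.09 without that array, both descriptions with no test. On slide 1 it was -1.23 and on slide 2 0.16. Under cordycepin, LPS gave -0.45 (adjusted p = 0.724, limma), lower on all 4 days.

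Atf4, the central transcription factor, differed little among the conditions. Its brighter probe read 17.95, 18.08, 17.60 and 17.57 in DMSO and 17.62, 17.67, 17.39 and 17.46 in cordycepin. With LPS it read 17.97, 18.03, 17.79 and 17.77 for the vehicle and 18.02, 17.66, 17.61 and 17.56 for cordycepin. The groups overlapped in each of the 4 pairwise comparisons, although all cordycepin arrays lay below those of LPS+DMSO. With cordycepin it was lower on 4 of 4 days without LPS and on 3 of 4 with LPS, by differences of -0.26 and -0.18 (adjusted p = 0.218 and 0.442, limma). The second Atf4 probe, 1203 bases upstream in the genome, gave -0.09 and -0.34 (adjusted p = 0.875 and 0.464, limma over all probes). Both probes match the Atf4 mRNA on chromosome 15 (mm9, 80087902 to 80087961 for the brighter one).

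Atf5, a related factor that is controlled at translation like ATF4, had group means that lay closer together. They ranged from 15.65 in cordycepin to 15.78 in LPS+DMSO, and its differences ran from -0.12 to 0.06 over the 4 pairwise comparisons, with no call. LPS+cordycepin lay below LPS+DMSO on 4 of 4 days, and these groups did not overlap, by a gap of 0.002, with a difference of -0.12 (standard error 0.10, adjusted p = 0.509, limma, and 0.0963 to 1 over the alternatives). The SD over the 4 arrays was 0.03 to 0.08 in the 3 conditions other than DMSO and 0.25 in DMSO, where replicate 2 read 16.06 against 15.51 to 15.77.

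The feedback and growth regulators behaved differently from one another. Trib3, a pseudokinase that ATF4 and CHOP induce and that restrains them, read 15.20, 16.64, 14.80 and 14.64 in DMSO and 15.00, 14.90, 14.36 and 14.39 in cordycepin. DMSO replicate 2 was again the highest array. The difference was -0.65 (standard error 0.37, adjusted p = 0.274, limma), and -0.21 without that array (adjusted p = 0.675, limma). With LPS the difference was -0.21 (adjusted p = 0.789, limma). All 4 day differences were below 0 in both comparisons, but the groups overlapped.

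Ddit4 (also REDD1), an inhibitor of mTORC1, differed with LPS by more than its spread in both backgrounds. It read 13.27, 13.54, 13.12 and 13.26 in DMSO and 14.29, 14.15, 13.81 and 13.76 in LPS+DMSO. The groups did not overlap, and LPS+DMSO was higher on all 4 days by 0.50 to 1.02. The difference was 0.71 (1.63-fold, standard error 0.16, adjusted p = 0.00617, limma), short of 2-fold, with 0.81 on slide 1 and 0.60 on slide 2. Under cordycepin the corresponding arrays were 13.28, 13.29, 13.08 and 13.15 without LPS and 14.14, 13.89, 13.61 and 13.38 with it. They gave a difference of 0.55 (1.47-fold, standard error 0.16, adjusted p = 0.0438, limma), with 0.73 and 0.38 on the slides. The LPS response with cordycepin less that with DMSO was -0.15 (standard error 0.23, adjusted p = 0.96, limma).

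Sesn2 encodes sestrin 2, another brake on mTORC1, and showed no call. Its mean was 12.59 ± 0.45 in DMSO and 12.51 ± 0.15 in cordycepin (SD, n = 4 each). With LPS it was 12.70 ± 0.22 for the vehicle and 12.94 ± 0.24 for cordycepin (SD, n = 4 each). LPS+cordycepin and cordycepin did not overlap, by a gap of 0.003, and differed by 0.43 (standard error 0.19, adjusted p = 0.241, limma).

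The genes of amino acid synthesis gave no call in any comparison. Asns, which makes asparagine and is a standard ATF4 target, had group means from 16.25 to 16.37, and its differences ranged from -0.09 to 0.08 over the 4 pairwise comparisons with standard errors of 0.11. Psat1, an aminotransferase of serine synthesis, had means from 15.19 to 15.38. Its difference with cordycepin was 0.18 without LPS (standard error 0.12, adjusted p = 0.348, limma) and 0.10 with LPS (adjusted p = 0.67, limma). The second Psat1 probe, 11904 bases away on chromosome 19, gave 0.40 and 0.17 (adjusted p = 0.0722 and 0.514, limma over all probes), and it was higher in cordycepin than in DMSO on 4 of 4 days, by 0.35 to 0.46.

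**Figure D3:**
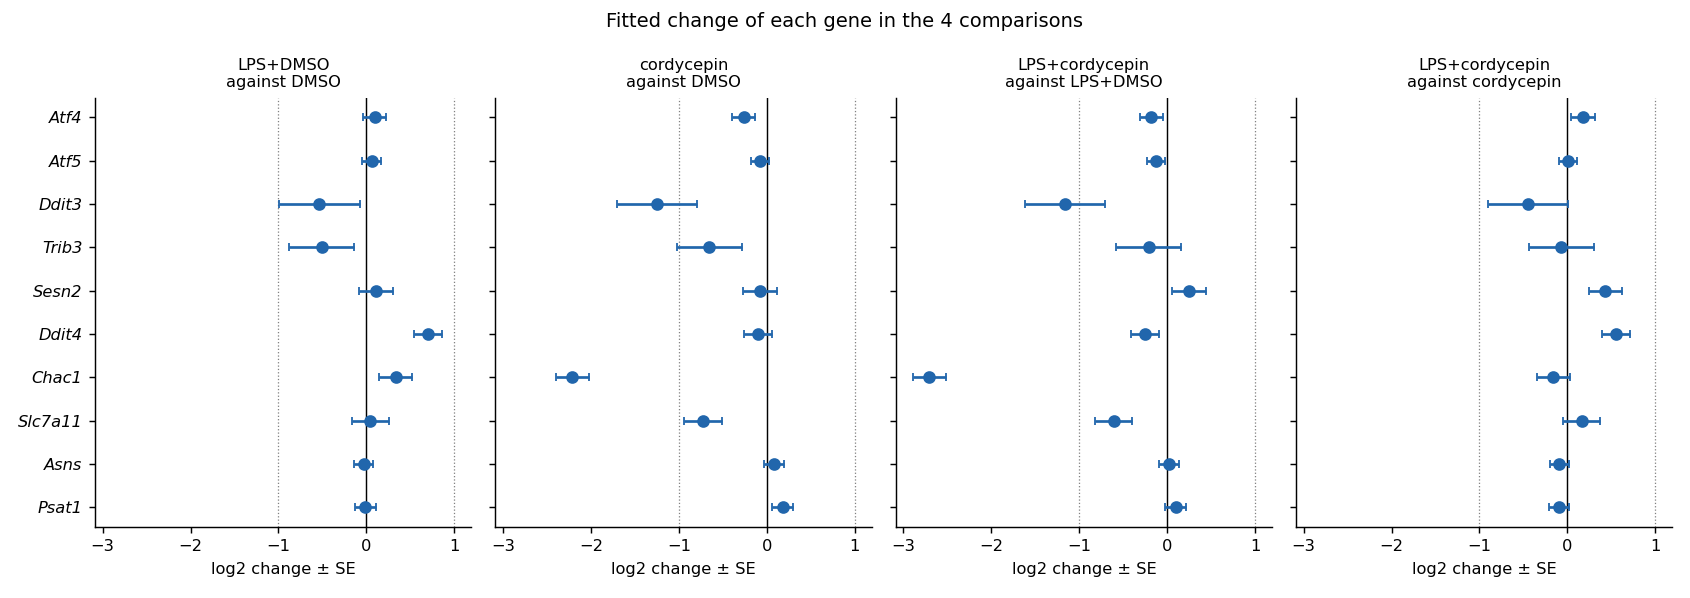
Fitted log2 change of each gene, with its standard error, in the 4 pairwise comparisons (dotted lines, 2-fold). With cordycepin, Chac1 lies at -2.21 and -2.70 while Asns, Atf5 and Psat1 lie between -0.12 and 0.18, and the wide bars are those of Ddit3 and Trib3.

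Over the whole set, LPS+DMSO against DMSO gave 0 called genes of 10, where limma called 2.09% of all genes raised and 2.49% lowered. Chac1 and Ddit3, both counted among the 10, are no test there, since arrays that chose them are compared. At an unadjusted p under 0.05 only Ddit4 passed, and the methods' t-test after Benjamini-Hochberg adjustment called none at 2-fold. The median change was 0.05 over the 10 genes and -0.04 over all genes tested. In cordycepin against DMSO 8 of 10 genes, the chosen Chac1 included, lay below 0. The median over the 10 was -0.18, where all genes tested had one of 0.04. Without DMSO replicate 2 these became -0.09 and 6 of 10.

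For cordycepin in the presence of LPS, limma called 0 of the other 9 genes, where it called 5.93% of all genes raised and 1.52% lowered. Ddit3 and Slc7a11 passed an unadjusted p under 0.05, and the methods' t-test after adjustment called Ddit3 alone. The median over the 9 genes was -0.18 with 6 below 0, against 0.03 over all genes tested. In LPS+cordycepin against cordycepin 0 of 10 were called (1.69% of all genes raised, 1.22% lowered, limma). Chac1, counted among these 10, is no test in this comparison, since the LPS+cordycepin arrays helped to choose it. Sesn2 and Ddit4 passed an unadjusted p under 0.05 there, and the methods' t-test called none. For the LPS response with cordycepin less that with DMSO, 0 of 9 genes were called, where 0.365% of all genes were, and none had an unadjusted p under 0.05 (limma). Ddit3, counted among the 9, is no test there, since DMSO replicate 2 enters the difference. For Chac1 this difference of responses was -0.49 (standard error 0.27), given as a description.

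DMSO replicate 2 was the highest of the 4 DMSO arrays for 8 of the 10 genes, all but Chac1 and Psat1, and the lowest for Psat1. Ddit3 was among the 8, and its height on this array was what had singled the array out. The array was highest for 40 of 68 further pathway genes (58.8%) and lowest for 23.5% of them. Over all genes tested it was highest for 35.1% and lowest for 34.9%. Of the pathway genes named below, Ppp1r15a read 14.62 on that array against 12.50 to 13.14 on the other 3, and Gdf15 11.91 against 10.14 to 10.76. Chac1 read 13.44 there, inside the range of the other 3 arrays. The array with the highest Ddit3 signal was thus not the one with the highest Chac1 signal.

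The other genes of the pathway were examined by 7 lists of 71 genes, of which 68 could be tested. LPS raised 5 of the 68 in LPS+DMSO against DMSO and lowered none, where 2.09% of all genes were called raised and 2.49% lowered. Ppp1r15a, the inducible phosphatase subunit that ends eIF2alpha phosphorylation, rose by 3.36 (standard error 0.33, adjusted p = 3.75e-06, limma), from 13.24 ± 0.96 to 16.61 ± 0.25 (SD, n = 4 each). Atf3, a stress transcription factor, rose by 3.13 (adjusted p = 1.06e-09), Gdf15, a secreted stress cytokine, by 3.12 (adjusted p = 2.48e-06), Herpud1, a component of ER-associated degradation, by 1.58 (adjusted p = 1.16e-06) and Dnajb9, an ER co-chaperone, by 1.21 (adjusted p = 8.48e-06, limma). None of the 5 encodes an enzyme of amino acid synthesis or a tRNA synthetase. The 12 tested synthesis genes had a median of -0.13 and the 13 synthetase and export genes of -0.01, against -0.04 over all genes tested, with no call in either list. Past the adjusted p alone, 11 of 68 genes were higher with LPS (5.14% of all genes) and 2 lower (9.8% of all genes).

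Cordycepin without LPS gave a single call among the 68, where 4.49% of all genes were called raised and 1.06% lowered. Slc7a3, a cationic amino acid transporter, was well above background on all 4 cordycepin arrays and on no DMSO array, and was at least 8.65-fold higher. It passed the filter on dim probes only through the arrays with cordycepin, where it is high, so that it had to differ and its call carries no weight. The bound uses, on each DMSO array, the lowest signal among probes well above background. No pathway gene was called lowered, and 1 was in 8 of the 20 fits that left out an array or a replicate number. Atf3 fell by 0.99 (adjusted p = 0.000212, limma), just short of 2-fold, and Herpud1 by 0.66 (adjusted p = 0.00363, limma). Past the adjusted p alone, without the minimum fold, 11 of 68 were lower (16.2%), where 7.55% of all genes were, and 2 were higher, Slc7a3 included, where 8.23% of all genes were. The 6 bZIP partners and stress regulators had the lowest median, -0.59, and the 8 transporters had one of -0.31, while the synthesis genes (-0.07) and synthetase and export genes (-0.02) lay near the 0.04 of all genes tested.

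With LPS, cordycepin gave 2 raised and 2 lowered pathway genes of 68, where 5.93% of all genes were called raised and 1.52% lowered. Of the raised genes, Slc7a3 again passed the filter only where it is high and was at least 10.4-fold higher. Tnfrsf10b, a death receptor that CHOP induces, rose by 1.14 (adjusted p = 8.1e-08, limma). Atf3 fell by 2.01 (adjusted p = 1.31e-07), with 16.25, 16.09, 16.06 and 16.26 in LPS+DMSO and 14.11, 14.33, 14.01 and 14.18 in LPS+cordycepin. Herpud1 fell by 1.89 (adjusted p = 1.26e-07, limma), with 14.86, 14.47, 14.43 and 15.04 in LPS+DMSO and 12.88, 12.83, 12.66 and 12.88 in LPS+cordycepin. The groups were far apart in both genes. Ppp1r15a and Gdf15, the other strongly LPS-responsive genes, had means of 16.61 and 16.43, and of 13.95 and 13.60, in LPS+DMSO and LPS+cordycepin, and neither was called. Past the adjusted p alone, 11 of 68 genes were lower (8.45% of all genes) and 2 higher, Slc7a3 included (10.8% of all genes).

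**Figure D4:**
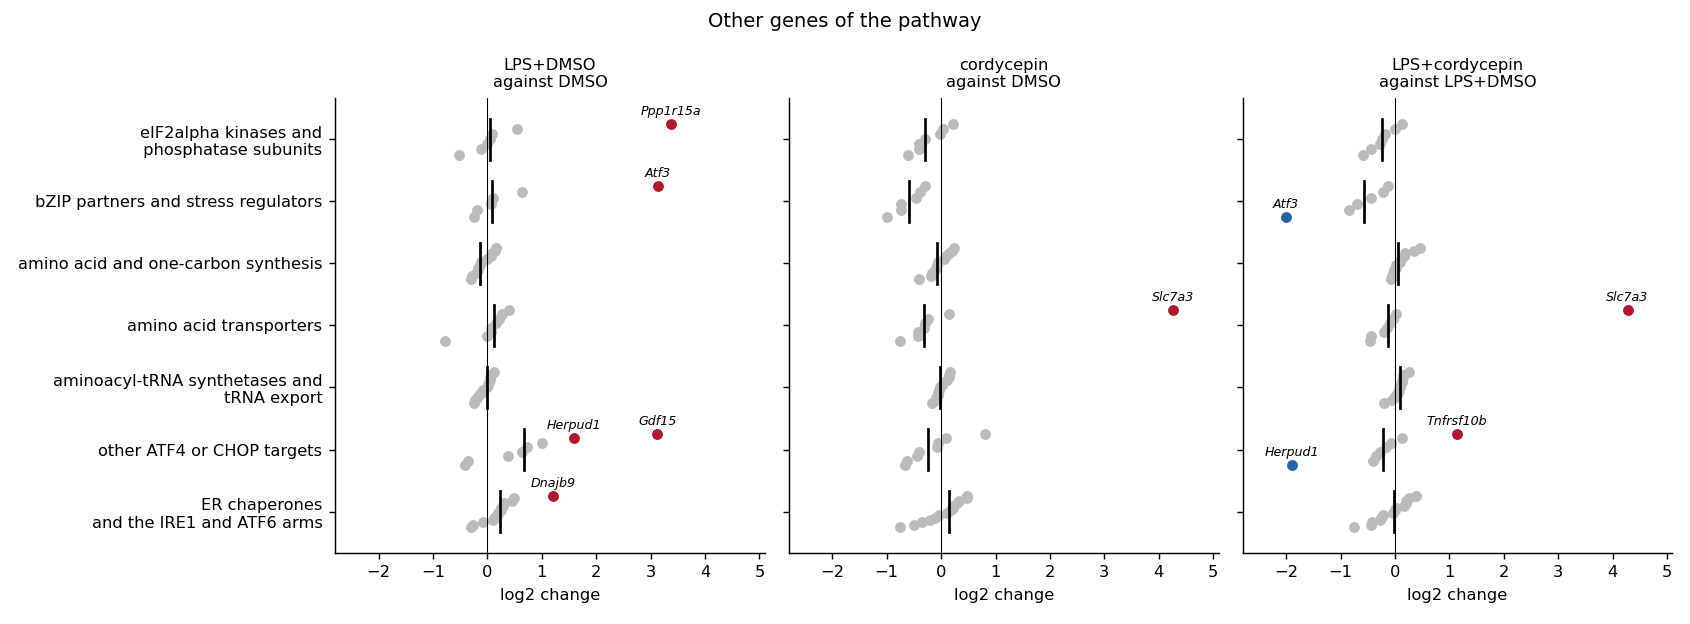
Log2 change of the 68 further pathway genes in 3 comparisons, by list, with called genes in red (raised) or blue (lowered) and named, and the list median as a black bar. The synthesis and tRNA synthetase lists cluster at 0, and the fitted value of Slc7a3 is drawn although only a lower limit of its change is known.

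Under cordycepin, LPS raised 6 of the 68 genes and lowered none, where 1.69% of all genes were called raised and 1.22% lowered. The largest rises were those of Ppp1r15a (3.81, adjusted p = 1.54e-06), Gdf15 (2.83, adjusted p = 1.2e-05) and Atf3 (2.11, adjusted p = 1.67e-07, limma). The LPS response with cordycepin was smaller than that with DMSO for Atf3, by a difference of -1.02 (standard error 0.21, adjusted p = 0.048, limma), and for Herpud1, by -1.22 (standard error 0.20, adjusted p = 0.0111, limma). These were the 2 pathway genes of 68 called for that difference, where 0.365% of all genes were called. Over 36 other settings the count was 2 in 10, 1 in 17 and 0 in 9.

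Across the 16 arrays the 5 genes whose level followed Chac1 most closely were Traf2 (Pearson r = 0.977), Hinfp (0.974), Akap10 (0.973), Gpatch3 (0.970) and Pheta1 (0.970). The points share arrays and fall into 2 levels, with and without cordycepin, so that r is a description of that step. Traf2, an adaptor of TNF receptors, had means of 13.64 in DMSO and 13.67 in LPS+DMSO, against 12.22 in cordycepin and 12.06 in LPS+cordycepin. Hinfp, a regulator of histone genes, went from 9.87 and 10.04 to 7.47 and 7.65. None of the 5 was on a pathway list. Among the members, r with Chac1 was 0.75 for Slc7a11, 0.62 for Ddit3 and 0.49 for Atf4, and -0.40 for Psat1, whereas r with Ddit3 was 0.88 for Trib3, a value that includes DMSO replicate 2.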

How the data were processed

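Cy3-labelled RNA of 16 RAW 264.7 cultures was hybridised to 1-colour Agilent arrays. The authors read them with Agilent Feature Extraction 10.10.1.1, and the deposited processed intensity of each spot is background-subtracted and not scaled between arrays. The authors also deposited a table of normalized log2 values, which served as an alternative. The sources used here name limma, without a version, among the processing tools but do not give the normalization method. Conditions and replicate numbers came from the labels. The members and lists were chosen with earlier results of these data known.

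The log2 intensity was set to the 75th percentile of each array over 18064 probes well above background on all arrays. Outlier spots were left out. A probe was kept if all 4 arrays of any condition had it well above background (21597 probes), and the brightest stood for its gene. limma 3.58.1 in R 4.3.3 fitted the 4 condition means over 16 arrays, with Benjamini-Hochberg adjustment over 15877 genes, and was tested on simulated data. Signal over background and the number of arrays limit the precision. Probe positions are those of the files (mm9), and promoters are RefSeq's (GRCm38.p6).

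Genes named are every member, up to 3 called pathway genes with the largest rise and fall in each pairwise comparison (all of them where at most 5 were called), and the 5 genes most correlated with Chac1. Further genes, markers aside, are not named. Cultures of one replicate number share a day (series design text) and a plate (treatment protocol). The mean correlation of residuals was 0.20 for arrays with the same number (-0.06 to 0.44), 0.18 for arrays that shared only the slide and -0.19 across slides. A replicate block and a slide block were alternatives, beside other scalings, background correction, filters, probe rules, thresholds, a Student t-test and leaving out each array or replicate number. Files were read and plots drawn in Python 3.11.15 (pandas 2.3.3, numpy 2.4.6, matplotlib 3.10.9).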

Additional observations from a re-analysis of the deposited data

Results flagged for a closer look

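The LPS responses of Atf3 and Herpud1 differed between vehicle and cordycepin by the test of that difference. The response with cordycepin less that with DMSO was -1.02 for Atf3 (adjusted p = 0.048, limma) and -1.22 for Herpud1 (adjusted p = 0.0111, limma). Over 36 other settings the number of pathway genes called for it was 2 in 10, 1 in 17 and 0 in 9, which does not say which genes. The 9 with 0 were an adjusted p under 0.01, scaling to the median or to spiked-in probes, no filter on dim probes, either slide alone and the fits without replicate number 1, 3 or 4. No member showed such a difference, with Chac1 not tested and Ddit3 no test because of DMSO replicate 2. In 48 groups of 4 arrays (12 probes in 4 conditions), 0 had an array far enough from the other 3 to be marked, where chance marks about 1 in 20. The high Ddit3 array of DMSO was not marked.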

How the results depend on the processing

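Chac1 kept its direction and its call in cordycepin against DMSO under all 39 alternatives (-2.47 to -2.13). The members called there rose from 1 to 2 with scaling to the median, the replicate block and the slide block, each adding Ddit3, and with no minimum fold, which added Slc7a11, and were 1 to 2 when an array or replicate number was left out (2 without DMSO replicate 3, again with Ddit3). These Ddit3 calls are no test, since the comparison holds the array chosen by its Ddit3 height. In LPS+cordycepin against LPS+DMSO the 0 calls became 1, Ddit3, with the replicate block, the slide block, scaling to the median or to spiked-in probes, slide 2 alone, only the groups compared and the t-test, adjusted or not. They were 0 to 1 on leaving out arrays (1 without DMSO replicate 2 or replicate number 2). Those fits leave out the array chosen by its Ddit3 height, so that their calls are no test. With no minimum fold 1 gene, Ddit4, was called for LPS, with and without cordycepin. No other call of a member changed with the replicate block. No member difference that was called in any setting changed sign. Some differences that were never called did change sign between settings. For LPS+DMSO against DMSO, Ddit3 ranged from -1.23 to 0.16 and Slc7a11 from -0.32 to 0.41 over the 39 alternatives. Scaling to the median moved the median change of all genes by cordycepin from 0.04 to -0.23 without LPS and from 0.03 to -0.24 with it. Relative to that median Chac1 stayed far below. Scaling to spiked-in probes moved the median for LPS under cordycepin from -0.05 to -0.36. For the Chac1 difference with LPS, -2.98 (median scaling), -3.04 (slide 1) and -2.36 (slide 2) lay more than 1 standard error from the -2.70 given. All genes called numbered 728, 881, 1184 and 462 in the 4 pairwise comparisons (LPS, cordycepin, cordycepin with LPS, LPS under cordycepin), but 371, 393, 697 and 257 after normexp, 380, 347, 524 and 221 with probes above background on all arrays, and 2372, 2505, 3049 and 1294 with no minimum fold. The authors' table gave 453, 586 and 775 in the first 3, and slide 1 alone 307 in the fourth. For the difference of LPS responses the 58 became 5 to 115. The pathway genes called for cordycepin rose from 1 to 5 (4 lowered) with scaling to the median and were 0 with probes above background on all arrays, and for LPS under cordycepin fell from 6 to 3 with spiked-in scaling. With no minimum fold they numbered 13 for LPS (11 raised) and 13 for cordycepin with and without LPS (11 lowered in each), against 5, 4 and 1. This recount of pathway genes was added after seeing the data.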
